A study of Saccharomyces cerevisiae with 4 samples.

Results

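Open chromatin was examined upstream of 10 budding yeast genes that code for translation elongation factors and their paralogs: TEF1, TEF2, EFB1, TEF4, CAM1, EFT1, EFT2, YEF3, HEF3 and HYP2, of 6002 nuclear protein-coding genes. They were chosen by function, but the list was proposed after the deposited peaks had been examined, with the peak gained upstream of YEF3 already known. Presence, fold, rank, width and summit of their upstream peaks are therefore given as a description, with no test. The assay was ATAC-seq, in which the transposase Tn5 inserts adapters where DNA is accessible. There were 2 libraries of wild type (WT) and 2 of cells with SWC4 deleted (swc4Δ), all from strain BY4741 grown at 30 °C and collected in mid-log phase. Swc4 is a subunit of the SWR1 chromatin remodeller and of the NuA4 histone acetyltransferase. The labels did not say whether replicates were separate cultures, nor how many deletion clones were used. SWC4 (YGR002C, chromosome VII, 498476 to 499906) had 0 peaks over the gene and none within 1 kb upstream in each of the 4 libraries, which leaves no peak to check the deletion by.

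Elongation factors carry the ribosome along the mRNA. The eEF1A protein, made from both TEF1 and TEF2, brings aminoacyl-tRNA to the ribosome, and eEF1B exchanges its guanine nucleotide. Within eEF1B, EFB1 codes for the catalytic subunit, and TEF4 and CAM1 each code for a gamma subunit. Translocation is driven by eEF2, encoded by EFT1 and EFT2. Fungi also need eEF3, an ATPase encoded by YEF3, whose paralog HEF3 is little used in standard growth. HYP2 codes for eIF5A, which relieves stalled ribosomes and carries the modified residue hypusine. Most of these genes are among the most strongly transcribed in growing yeast.

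A peak was counted as upstream when it shared at least 1 bp with the 1 kb before the start codon in assembly R64, the assembly of the sacCer3 build. The 4 lists held 2354 and 2115 peaks in WT versus 2826 and 2368 in swc4Δ. Each peak carried the authors' fold over 1 background for its library, and that background was 22.6 and 24.0 fragments in WT versus 24.4 and 25.5 in swc4Δ. From the fold and the background the pileup at each summit was recovered, and its exact Poisson 95% interval is given below. The sources used here do not state what was piled up, and the unit is called fragments throughout. The interval takes the counts as independent and covers counting error only. The lowest fold in a list was 1.54 to 1.61 and the narrowest peak was 200 bp. A window without a peak can thus still be accessible below that level. Each list is described by its own ranks, and a rank of 1 is the highest fold.

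For all 10 genes, both libraries of a genotype gave the same call, as the peak map shows. TEF1, TEF2, EFB1, CAM1, EFT2 and HYP2, which is 6 of 10, had an upstream peak in all 4 libraries, against 35.6% of all protein-coding genes. YEF3 and TEF4, 2 of 10, had one in both swc4Δ libraries but in no WT library, here called gained, against 5.21% of all genes. None of the 10 had the reverse, a peak in both WT libraries and in neither swc4Δ library, against 1.20% of all genes. EFT1 and HEF3, 2 of 10, had no upstream peak in any library, against 32.6% of all genes. Since the genes were proposed from these same lists, nothing is read from these shares. In all, 6 and 6 members had an upstream peak in the WT libraries versus 8 and 8 in the swc4Δ libraries, while over all genes 50.9% and 43.8% did in WT versus 60.0% and 49.4% in swc4Δ (47.4% ± 5.09 and 54.7% ± 7.52, SD, n = 2).

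**Figure D1:**
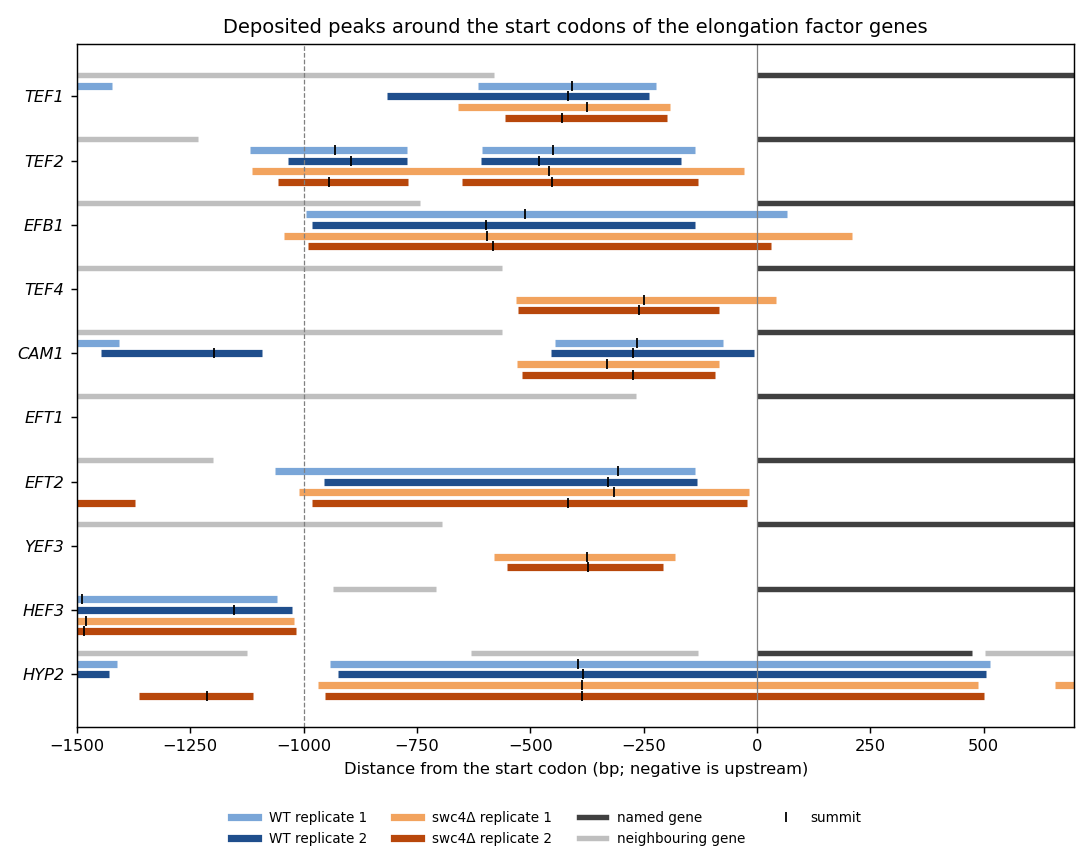
Peaks deposited for each library (coloured bars, ticks at summits) by distance in bp from the start codon of each elongation factor gene, with the gene and its neighbours drawn above. The dashed line marks 1 kb upstream. Between that line and the start codon, YEF3 and TEF4 have bars in the swc4Δ libraries only, EFT1 has none, and the peaks nearest to HEF3 stop just beyond the dashed line.

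YEF3 (YLR249W, chromosome XII, 636780 to 639914) codes for the essential eEF3. Its upstream peak had a fold of 3.55 in swc4Δ replicate 1 and 2.91 in swc4Δ replicate 2, and no WT library had a peak there. The summit pileup was 89 fragments (71.5 to 110) and 76 fragments (59.9 to 95.1). A called peak lies above background by definition, so that comparison adds nothing. Summits lay 376 and 373 bp before the start codon, 3 bp apart, and the peaks were 400 and 345 bp wide. They ranked 805 of 2826 and 697 of 2368, so the gained peak stood in the upper part of both lists. Both peaks lay wholly in the 695 bp between YEF3 and RCK2, a kinase gene read in the same direction. On chromosome XII, 15 of 520 genes, or 2.88%, were gained.

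The YEF3 coding sequence had the opposite arrangement. WT replicate 1 had a peak from 2020 to 2259 bp after the first base of the start codon with a fold of 1.78, and WT replicate 2 had one from 2088 to 2358 bp with a fold of 1.76. Their summits lay apart, at 2071 and 2256 bp. A further peak of WT replicate 2 ran from 1202 to 1466 bp with a fold of 1.60. No swc4Δ library had a peak over the YEF3 body. These body peaks were weak: they ranked 2229 of 2354, 1982 of 2115 and 2109 of 2115, with summit pileups of 41, 43 and 39 fragments. Their −log10 q values of 2.61, 2.55 and 1.67 lay under the stricter threshold of 5, at which none of them remained. Over all genes, 1.63% had a peak over the body in both WT libraries and in neither swc4Δ library. Of the 6002 genes, 3 had both the gained upstream peak and this pattern over the body: YEF3, HSC82 and GOR1, of which HSC82 and GOR1 were named after their values were seen. Whether 3 differs from what shares of 5.21% gained and 1.63% over the body would give was not tested, and nothing is read from it. HSC82 codes for a heat shock protein of the Hsp90 family; its upstream folds were 3.03 and 2.42 in swc4Δ and its body folds 1.86 and 1.80 in WT. GOR1, a glyoxylate reductase gene, had upstream folds of 2.13 and 2.38 and body folds of 1.74 and 1.64. Downstream of YEF3, swc4Δ replicate 1 alone had a peak, from 3264 to 3468 bp, with a fold of 2.44.

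HEF3 (YNL014W, chromosome XIV, 606319 to 609453) is the paralog of YEF3 and has the same length, 3135 bp. It had no upstream peak, but peaks lay just beyond the window. The closest peaks ended 1059 and 1025 bp before its start codon in WT versus 1022 and 1016 bp before it in swc4Δ, just outside the window. On the inner side of that limit, the nearest member peak was the outer one of TEF2, whose edge lay 769 to 773 bp before the start codon. The closest peaks upstream of HEF3 had folds of 2.71 and 2.40 in WT versus 3.23 and 2.64 in swc4Δ. PBI2, a gene read in the same direction, lies between them and HEF3, so these peaks lay upstream of PBI2. Inside the 707 bp between PBI2 and HEF3 no library had a peak. HEF3 also had no peak over its body in any library, and it appeared in neither of the authors' genotype lists within 1 kb.

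TEF4 (YKL081W, chromosome XI, 282891 to 284455), one of the eEF1B gamma genes, was the other gain. The fold was 2.64 in swc4Δ replicate 1 and 2.34 in swc4Δ replicate 2, with no peak in either WT library. Summit pileups were 66 (51.0 to 84.0) and 61 (46.7 to 78.4) fragments. The summits lay 250 and 260 bp upstream, inside the 561 bp that TEF4 shares with the divergent gene RRP14, a ribosome biogenesis factor. The peak therefore cannot be assigned to TEF4 rather than RRP14. Ranks of 1478 of 2826 and 1216 of 2368 put the peak near the middle of both lists, below that of YEF3. Chromosome XI differed from the rest of the genome in these libraries: 94 of its 318 genes, or 29.6%, were gained. On chromosome XI, the shared regions (those with a peak in all 4 libraries) had median folds of 2.97 and 2.52 in WT versus 4.81 and 3.43 in swc4Δ. Against that median, the TEF4 peak was low, at 0.549 and 0.681 times. The part of this chromosome-wide shift in the TEF4 gain was not tested.

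The second gamma gene, CAM1 (YPL048W, chromosome XVI, 464401 to 465648), was open in both genotypes. Its folds were 3.22 and 3.04 in WT versus 4.65 and 3.25 in swc4Δ, so both swc4Δ values lay above both WT values, though replicate 2 only just. The same held for 45.4% of all shared regions. Like TEF4 it faces a divergent gene, DIG1, across 561 bp, and its summits lay at 265 and 274 bp in WT versus 332 and 274 bp in swc4Δ. This peak too cannot be assigned to CAM1 rather than DIG1. The paralogs thus had the same layout and different peak calls in WT. WT replicate 1 also had a weak peak across the CAM1 stop codon, with a fold of 1.78.

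The catalytic eEF1B gene EFB1 (YAL003W, chromosome I, 142174 to 143160) lay in a broad open region. Its peaks were 1062 and 845 bp wide in WT versus 1254 and 1022 bp in swc4Δ, and in 3 libraries they spanned the whole 742 bp up to SSA1, a divergent Hsp70 chaperone gene. In WT replicate 2 the peak stopped 138 bp before the EFB1 start codon. Folds were 3.39 and 3.44 in WT versus 4.61 and 3.89 in swc4Δ. Both swc4Δ folds lay above both WT folds, as in 45.4% of shared regions. Summits lay 511 to 597 bp before the EFB1 start codon, closer to SSA1 than to EFB1, so the peak cannot be assigned to one of the pair. The edge ran into the EFB1 gene by 66 bp in WT replicate 1, by 210 bp in swc4Δ replicate 1 and by 31 bp in swc4Δ replicate 2.

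The eEF1A genes TEF1 (YPR080W, chromosome XVI, 700594 to 701970) and TEF2 (YBR118W, chromosome II, 477671 to 479047) were open in every library. TEF1 had folds of 3.81 and 3.80 in WT versus 4.73 and 3.96 in swc4Δ. Both swc4Δ values lay above both WT values, replicate 2 by little, as did 45.4% of shared regions. For TEF2 the folds were 4.45 and 3.76 in WT versus 5.52 and 4.19 in swc4Δ, and here the genotypes overlapped. Summit pileups ran from 89 to 119 fragments at TEF1 and from 93 to 139 at TEF2. Both genes had a compact peak at a similar place: summits were 376 to 430 bp upstream at TEF1 and 451 to 482 bp upstream at TEF2. TEF1 has MRL1, read in the same direction, 579 bp away, while TEF2 has 1233 bp to the divergent gene TKL2. TEF2 had a second peak further out in 3 libraries, with folds of 2.46 and 2.60 in WT versus 2.45 in swc4Δ replicate 2. In swc4Δ replicate 1 a single peak of 1088 bp covered both places.

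**Figure D2:**
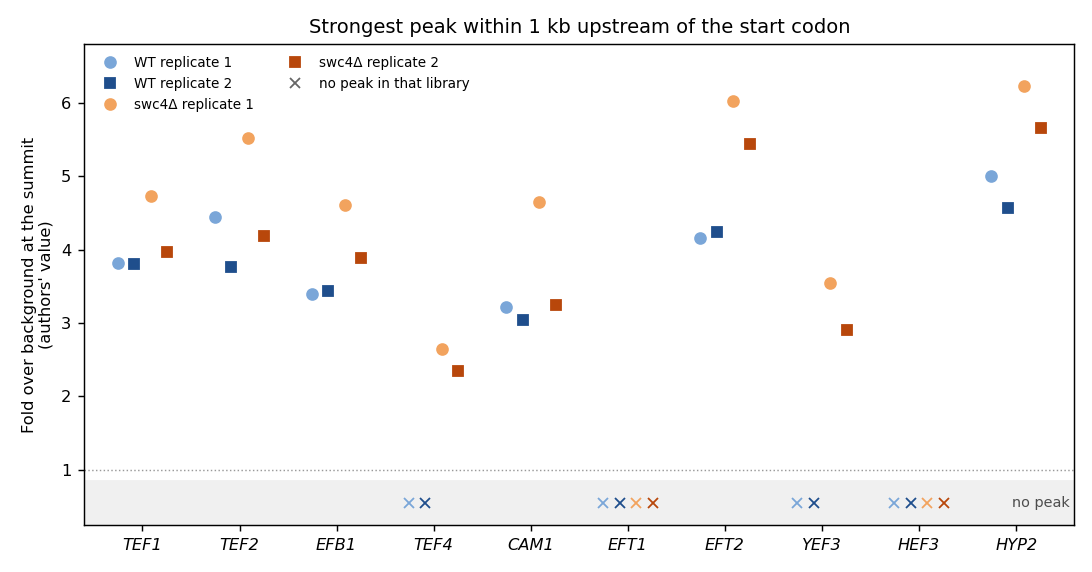
Fold over background at the summit of the strongest peak within 1 kb upstream (the authors' value, y axis) for each gene and library; crosses in the grey band mark libraries with no upstream peak. HYP2 and EFT2 reach the highest folds in swc4Δ, up to 6.23 and 6.03, and YEF3 and TEF4 have points in swc4Δ only.

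Of the eEF2 genes, 1 copy had an upstream peak in every library and the other in none. EFT2 (YDR385W, chromosome IV, 1243230 to 1245758) had folds of 4.15 and 4.24 in WT versus 6.03 and 5.43 in swc4Δ. Its swc4Δ folds both lay above both WT folds, as in 45.4% of shared regions. The means were 4.20 ± 0.0639 and 5.73 ± 0.42 (SD, n = 2). The summit pileups were 97 (78.7 to 118) and 105 (85.9 to 127) fragments in WT versus 152 (129 to 178) and 143 (121 to 168) in swc4Δ. The peak was broad, from 824 to 995 bp over the libraries, within the 1198 bp that separate EFT2 from the divergent gene ATO3, an ammonium transporter. Its rank was 162 of 2354 and 89 of 2115 in WT versus 113 of 2826 and 37 of 2368 in swc4Δ. On chromosome IV 90 of 766 genes, or 11.7%, were gained, and its shared regions had a median fold of 2.92 and 2.66 in WT versus 3.94 and 3.26 in swc4Δ.

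EFT1 (YOR133W, chromosome XV, 575098 to 577626), of the same length of 2529 bp, had no upstream peak in any library. The nearest upstream peaks ended 3997 and 3951 bp away in WT versus 2908 and 3953 bp away in swc4Δ. Only 267 bp separate EFT1 from VPS17, which is read in the same direction, whereas the gap before EFT2 is 1198 bp. Past its stop codon EFT1 had a peak in 3 libraries, with folds of 2.16 in WT replicate 1, 3.11 in swc4Δ replicate 1 and 2.34 in swc4Δ replicate 2. EFT1 and EFT2 are near-identical copies, as are TEF1 and TEF2. How reads with several matches were treated is not given, and its part in the absence of peaks over these bodies was not tested.

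Only the authors' genotype lists had regions wholly over these copied coding sequences, and their scores were among the lowest. Over EFT1 the WT list had a region from 53 to 482 bp with a score of 42, ranked 987 of 1002, and the swc4Δ list one from 43 to 252 bp with a score of 47, ranked 2542 of 2602. Over TEF2 the swc4Δ list held a region from 70 to 619 bp scored 41 and another from 700 to 909 bp scored 36. Across the EFT2 start codon it held a region from 79 bp before to 550 bp after, scored 141 and ranked 2281. TEF1 had none. No per-library list had a peak over the bodies of TEF1, TEF2, EFT1 or EFT2.

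**Figure D3:**
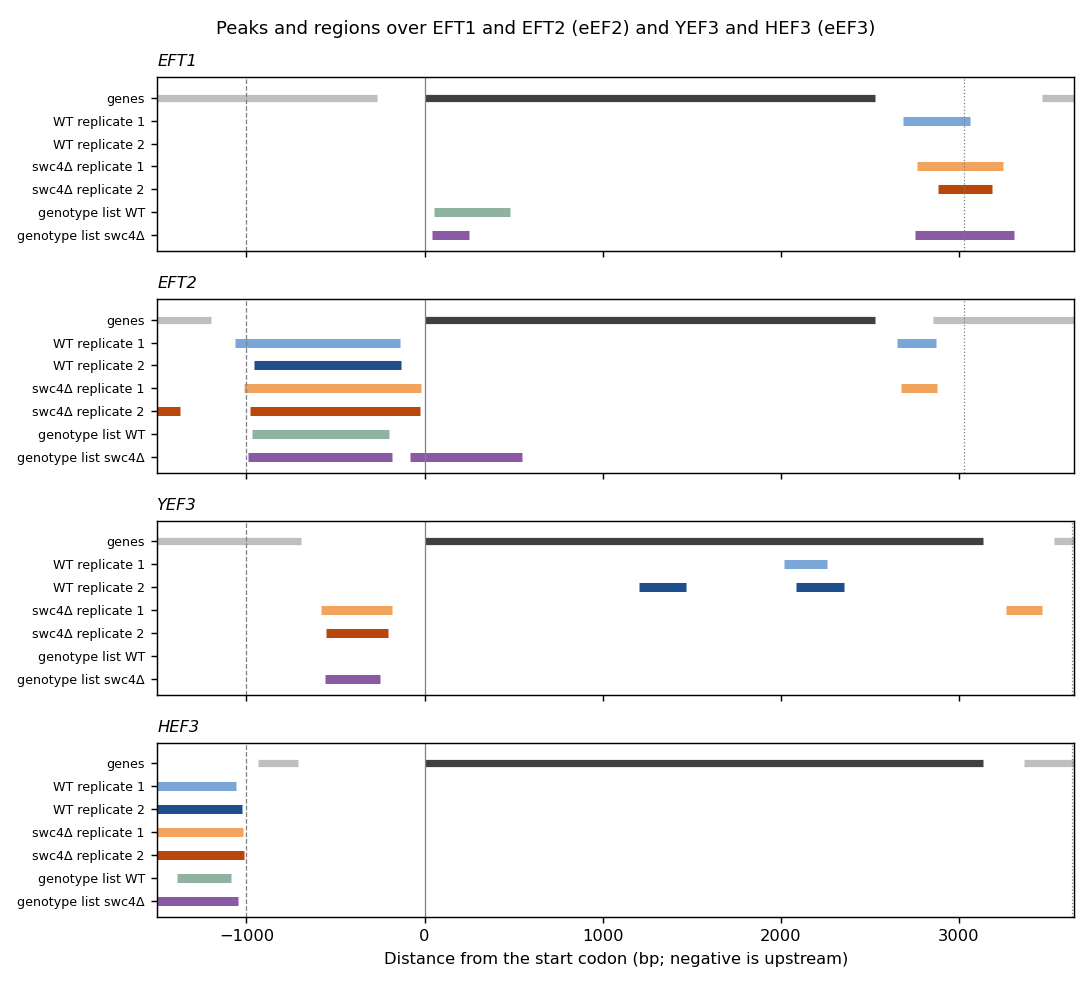
Peaks of the 4 libraries and regions of the authors' 2 genotype lists over EFT1, EFT2, YEF3 and HEF3 by distance in bp from the start codon; dark bars are the named genes and light bars their neighbours. The dashed line marks 1 kb upstream and the dotted line 500 bp past the stop codon, and peaks that start beyond it are not drawn. YEF3 has body peaks in WT only and an upstream peak in swc4Δ only.

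HYP2 (YEL034W, chromosome V, 85676 to 86149), the eIF5A gene, had the strongest upstream peak of the 10 in every library. Folds were 5.00 and 4.56 in WT versus 6.23 and 5.66 in swc4Δ, with means of 4.78 ± 0.309 and 5.94 ± 0.4 (SD, n = 2). The genotypes did not overlap, and 45.4% of shared regions likewise had both swc4Δ folds above both WT folds. The ranks were 27 of 2354 and 55 of 2115 in WT versus 87 of 2826 and 15 of 2368 in swc4Δ. Summit pileups were 117 (96.8 to 140) and 113 (93.1 to 136) fragments in WT versus 157 (133 to 184) and 149 (126 to 175) in swc4Δ. The peak was 1430 to 1457 bp wide in all 4 libraries and ran past the end of the 474 bp HYP2 gene in each of them. Its summit was the most repeatable of the 6 genes open in all libraries, lying between 385 and 395 bp upstream, a range of 10 bp. The gene UTR5 covers that stretch on the other strand. ANB1 (YJR047C, chromosome X, 524908 to 525381), the hypoxic copy of HYP2, was named outside the rule for genes; its upstream folds were 3.43 and 3.64 in WT versus 4.10 and 3.17 in swc4Δ, with summits 602 to 739 bp before its start codon.

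For the 6 genes open in all libraries, folds can be set against the 1328 regions that held a peak in all 4 libraries. As deposited, 5 of the 6 had both swc4Δ folds above both WT folds, as did 45.4% of those regions. The median over the 6 of the swc4Δ mean divided by the WT mean was 1.24, with a range of 1.14 for TEF1 to 1.37 for EFT2. Folds of all shared regions were also higher in swc4Δ, with medians of 3.01 and 2.68 in WT versus 3.76 and 2.94 in swc4Δ. When each fold was divided by the median of its own library, a scaling added after the data were seen, the ratio fell to a median of 1.06 and a range of 0.969 to 1.16. Only EFT2 then had both swc4Δ values above both WT values, at 1.38 and 1.58 in WT versus 1.60 and 1.85 in swc4Δ, as did 28.7% of the shared regions. Scaled to the regions of its own chromosome, EFT2 overlapped as well, at 1.42 and 1.59 in WT versus 1.53 and 1.66 in swc4Δ. On that scale 3 of the 6, EFB1, CAM1 and HYP2, had both swc4Δ values above both WT values, with ratios of 1.12, 1.09 and 1.05, as did 26.1% of the shared regions. Divided by the median of all peaks in the library, whether shared or not, the folds of the 6 gave a median ratio of 1.17.

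The 6 genes were also ranked against the shared regions within each library. HYP2 exceeded 97.8% and 95.7% of the shared regions in WT versus 93.1% and 98.6% in swc4Δ. EFT2 exceeded 86.6% and 93.1% in WT versus 90.9% and 97.1% in swc4Δ. TEF2 lay at 82.6% to 91.9%, TEF1 at 69.8% to 85.1%, EFB1 at 66.6% to 76.9% and CAM1 at 59.3% to 68.2%. Neighbours in this order overlapped over the libraries. The gained peaks stood lower: YEF3 exceeded 42.0% and 47.9% of the shared regions in swc4Δ, and TEF4 exceeded 14.0% and 20.3%.

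**Figure D4:**
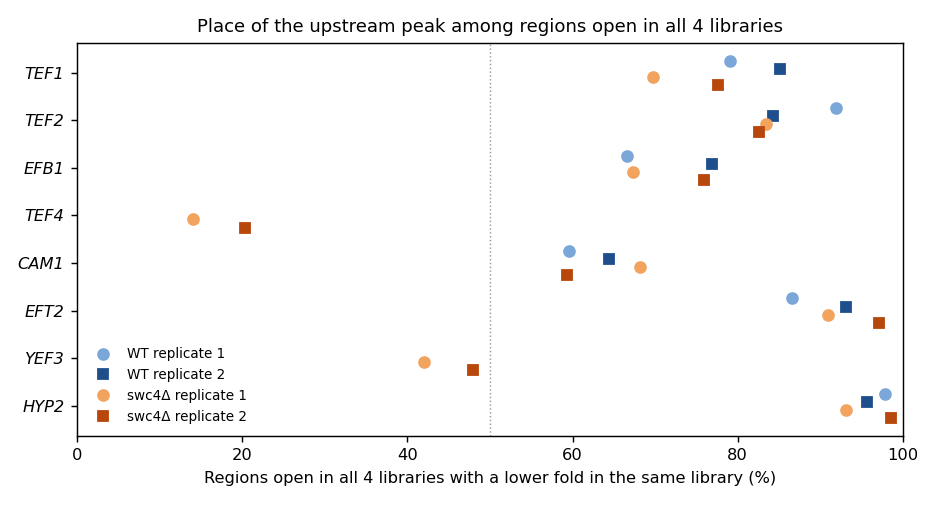
Percentage of the 1328 regions open in all 4 libraries whose fold in the same library was below that of the gene's strongest upstream peak (x axis), by gene and library. HYP2 and EFT2 lie at 86.6% or higher in every library, while YEF3 and TEF4 lie below 50% in both swc4Δ libraries.

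Summit positions were set beside those of every gene with an upstream peak. Median summit distance was 402 and 402 bp in WT versus 381 and 424 bp in swc4Δ over the 6 genes open in all libraries, and over all genes with such a peak it was 330, 366, 306 and 343 bp in the same order. The median of the 6 lay between the quartiles of all genes in each library, which were 168 to 199 bp and 557 to 631 bp. The median rank of the same 6 was 9.15% and 9.03% down the list in WT versus 10.7% and 10.8% in swc4Δ, against 35.7% to 39.3% over all genes with a peak. These are unlike sets: the 6 needed a peak in all 4 libraries, the other genes only in the library ranked. Ranks were not set against genes open in all libraries. Summits of the 6 moved by 10 to 112 bp over the 4 libraries, and the median over 2134 genes open in all libraries was 64.0 bp. Of the 10, 6 face a divergent gene and 4 follow a gene read in the same direction. Those open in all libraries were 5 divergent genes and TEF1. Arrangement was not counted over all genes, so nothing is read from this division.

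The authors' genotype lists, whose caller the sources used here do not name, gave the same division. Their WT list held a region within 1 kb upstream of 6 members, and their swc4Δ list of 8, the 2 added genes being YEF3 (score 360, rank 734 of 2602) and TEF4 (score 257, rank 1214). The lists differ in length, with 1002 and 2602 regions, and touched the windows of 1542 and 3506 of all 6002 genes. Which libraries went into them is not given, so they are not taken as an independent check.

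Other translation genes were counted as lists, beside the shares over all genes given above. Of 27 initiation factor genes 14 and 6 had an upstream peak in the WT libraries versus 15 and 13 in the swc4Δ libraries, 5 were open in all 4, 1 was gained and 0 were lost. The gain was PRT1, a subunit of eIF3, with folds of 2.17 and 1.89 and summits 7 and 4 bp before the start codon. Of 9 translational GTPase, ribosome recycling and termination genes 4 were open in all libraries and 1 was gained, RLI1, a recycling ATPase (folds 1.89 and 1.66). The lowest folds in the swc4Δ lists were 1.54 and 1.55, and the RLI1 summits lay 308 and 423 bp before the start codon. RLI1 lies on chromosome IV, where 11.7% of genes were gained. Of 4 mitochondrial elongation factor genes 1 was open in all libraries and 1 was gained, MEF2 (folds 2.96 and 2.26).

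Among 19 genes for proteins that modify or assist elongation factors, 7 were open in all libraries, 1 was gained and 2 were lost. The gain was EFM1, a methyltransferase acting on eEF1A, with folds of 2.17 and 2.04. Its summits lay apart, 228 and 584 bp before the start codon, so a shared position is not shown. One loss was LIA1, the deoxyhypusine hydroxylase that completes hypusine on eIF5A, with folds of 2.54 and 2.32 in WT and no peak in swc4Δ. The other was JJJ3, required for the diphthamide of eEF2, with folds of 1.86 and 1.92 in WT and summits 486 and 1091 bp before the start codon, which is not 1 shared position.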

How the data were processed

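ATAC-seq peak lists of 4 libraries (2 WT, 2 swc4Δ) and 2 lists of regions, 1 per genotype, were used as deposited. Per the submitters' processing notes, the build was sacCer3 and the tools were SAMtools 1.4, Bowtie2 2.3.1, deepTools 1.5.11, Picard 2.18.7 and Trim Galore 0.5.0, whose roles are not stated. The peak caller is not given in the sources used here. In the deposited peak lists each peak had a score, a fold (a ratio of pileup to background, each plus 1), −log10 p and −log10 q values and a summit position. The folds are the authors' values and matched 1 background per library. The genotype of the 2 region lists, each with a deposited score, was read from the code in the list name, and whether libraries were pooled for them is not given.

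Genes came from RefSeq annotation of R64, with strand from the systematic name. Peaks sharing 1 bp with the 1000 bp before the start codon were upstream, and the highest fold represented a gene. Peaks of the 4 libraries that shared 1 bp were joined, and a region with a peak from every library was shared. Poisson intervals are exact (95%) and cover counting error only, since amplified fragments carry no molecular identifiers. Total read depth is unknown. All 10 members are named, and of the other translation lists every gene gained or lost. Members and lists were chosen with earlier results of these data known, so no test was run and no p-value is given. Scripts ran in Python 3.11.15 with NumPy 2.4.6, pandas 2.3.3, SciPy 1.17.1 and Matplotlib 3.10.9 and were tested on simulated peaks. Promoter motifs and sequences were not analysed here.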

Additional observations from a re-analysis of the deposited data

How the results depend on the processing

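The calls of the 10 genes (2 gained, 6 open in all libraries, 2 with no upstream peak, 0 lost) named the same genes under all 10 alternatives run: a 500 bp window, a window that stops at the next gene, a −log10 q threshold of 5, lists shortened to the same 2115 peaks, the summit inside the window, an overlap of 100 bp, and each library left out in turn. Part of this was fixed in advance. The window, threshold, list length, summit and overlap alternatives were all narrower or stricter, so none could give EFT1 or HEF3 a peak. Leaving out a library could not change a call on which both libraries of a genotype agreed. No wider window was run, and the closest HEF3 peaks ended 1016 to 1059 bp before its start codon. The share of all genes gained moved more, from 5.21% to 3.93% with equal numbers of peaks. Leaving out a library removes a condition from the gained call, so that share could only stay or rise. It was 9.9% without WT replicate 1 and 6.36% without WT replicate 2. Without swc4Δ replicate 1 it was 7.06%, and without swc4Δ replicate 2 it was 11.4%. The median swc4Δ over WT fold of the 6 open genes was 1.24 as deposited. It was 1.17 over the library's median of all peaks, 1.05 over the median of shared regions on the same chromosome, 1.06 over that of the library (added after seeing the data), and 1.09 to 1.35 with 1 library left out. No paired analysis was possible because no test was run on these genes, and the labels tie the replicate numbers to no shared culture, batch or day. With 2 libraries per genotype, and fold known only where a peak was called, a gained peak cannot be told from one just under the threshold in WT.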
